A study of Mus musculus with 24 samples.

Results

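The 10 genes described here are the 6 mouse actin genes (Actb, Actg1, Acta1, Acta2, Actg2 and Actc1), the transcription factor gene Srf, and Cnn1, Myl9 and Tagln, contractile genes linked to SRF. They were taken by gene name from a count table of 55401 entries. All 10 were found, 8 had enough counts to be tested, and Acta1 and Actc1 are listed at 0 in all 24 libraries. The libraries are polyadenylated RNA of CJ9 mouse embryonic stem cells with a CRISPR-Cas9 knock-out of Setd3, and of wild-type CJ9 cells. Cells were taken at days 0, 2, 3 and 4 while differentiated towards endoderm, with 3 libraries for each genotype and day. At day 0 both genotypes were stem cells grown with LIF over mitotically inactive embryonic fibroblasts, called feeders. They were then separated from the feeders, grown for 2 days in a serum-free medium, and passaged as single cells into the same medium with Activin A, so days 3 and 4 of both genotypes are cells under Activin A. There is 1 knock-out line, and nothing in the labels marks replicates as separate cultures, so p-values measure the spread between these libraries, which may be technical.

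Actins are the subunits of microfilaments. Actb and Actg1 encode the cytoplasmic actins found in nearly all cells, Acta2 and Actg2 the smooth muscle actins, Acta1 the skeletal and Actc1 the cardiac actin. SRF binds a short promoter element, the CArG box, and is driven either by MRTF cofactors, which monomeric actin holds back, or by ternary complex factors downstream of ERK, so actin genes are both its targets and part of its control. SETD3 methylates a histidine of actin, and the comparison of genotypes asks whether the transcripts of actin and of SRF-linked genes differ when Setd3 is disrupted.

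Near-identical stretches between the actin genes bear on how reads can be assigned to them. Over the whole coding sequence of GENCODE M21 transcripts, the 15 pairs of actin genes had 81.7% to 88.6% identical bases. Actb and Actg1 had the most, 88.6%, and the longest identical run of any pair was 77 bases, between Actb and Acta1. The sources used here do not give how reads that map to several genes were treated, so a part of a low actin's counts could come from another actin.

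The promoters were searched for CArG boxes in RefSeq windows (GRCm38.p6) of 250 bases before to 50 bases after the start. A box was taken as CC, then only A or T, then GG, 10 bases in all. The motif is palindromic, so both strands are covered by a single search. A box was present in 535 of 32851 windows, or 1.63%. Of the 7 members with a window, 5 held one: Srf, which had 2, and Actg1, Myl9, Acta1 and Actc1. Acta2 and Cnn1 had no exact match in the window. Boxes with a differing base, or outside the window, were not searched for. The stretches of Srf (chr17:46556203-46556282, minus strand), Actg1 (chr11:120348546-120348625, minus strand) and Myl9 (chr2:156775264-156775343, plus strand) are printed because these genes have counts and differ between genotypes at day 4. The boxes are in capitals.
Srf: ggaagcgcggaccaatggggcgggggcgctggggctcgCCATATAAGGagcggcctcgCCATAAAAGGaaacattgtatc
Actg1: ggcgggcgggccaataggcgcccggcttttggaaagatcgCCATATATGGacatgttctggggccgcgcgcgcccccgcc
Myl9: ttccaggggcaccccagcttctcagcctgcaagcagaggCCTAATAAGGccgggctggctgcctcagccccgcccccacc
A match is a run of letters in a window and says nothing of binding in these cells.

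Gene counts summed to 18531390 to 24244958 per library. Levels are CPM, counts divided by the library's scaled total, and means are given ± SD over n = 3 libraries. Differences are log2 fold changes, each ± its own size divided by the square root of its F value. Setd3 itself stood at 46.3 CPM in knock-out cells, against 122 CPM in wild-type cells, at day 0, and its knock-out level was 38%, 31.7%, 26.3% and 24.2% of the wild-type level at days 0, 2, 3 and 4. The 5 counted stem cell markers (Sox2 is listed at 0) summed to 2491 to 2698 CPM in knock-out and 2507 to 2517 CPM in wild-type libraries at day 0. The 8 streak and endoderm markers summed to 6.81 to 8.25 CPM in knock-out and 77.0 to 128 CPM in wild-type libraries at day 0. At day 2 their sums were 8.19 to 12.4 CPM in knock-out and 43.9 to 96.1 CPM in wild-type libraries. At day 3 they were 43.0 to 53.6 CPM and 881 to 1658 CPM, and at day 4 202 to 418 CPM and 2079 to 2348 CPM. The streak and endoderm sums of the genotypes thus lay far apart at every day, day 0 included. In bulk RNA, fewer cells of a type and less RNA per cell cannot be told apart.

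Against wild-type, more of the 8 tested members differed at day 4 than at other days, and so did more of all tested genes. Calls were made at an adjusted p under 0.05 over all 17144 tested genes. At day 0, 0 of 8 members passed, where 21.1% of all tested genes did (edgeR's quasi-likelihood test). Only Actb had an unadjusted p under 0.05 there, 0.0151, and DESeq2's Wald test also passed 0 of 8. At day 2, 2 of 8 passed, both lower in the knock-out, where 32% of tested genes passed and 15.7% were lower. At day 3, 1 of 8 passed, lower, where 41.2% of tested genes passed and 20.5% were lower. At day 4, 5 of 8 passed, all higher in the knock-out, where 54% of tested genes passed and 26.3% were higher. The median log2 fold change of the 8 at days 0, 2, 3 and 4 was -0.14, -0.54, 0.11 and 1.00, where the median of all tested genes lay between -0.013 and 0.0059.

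**Figure D1:**
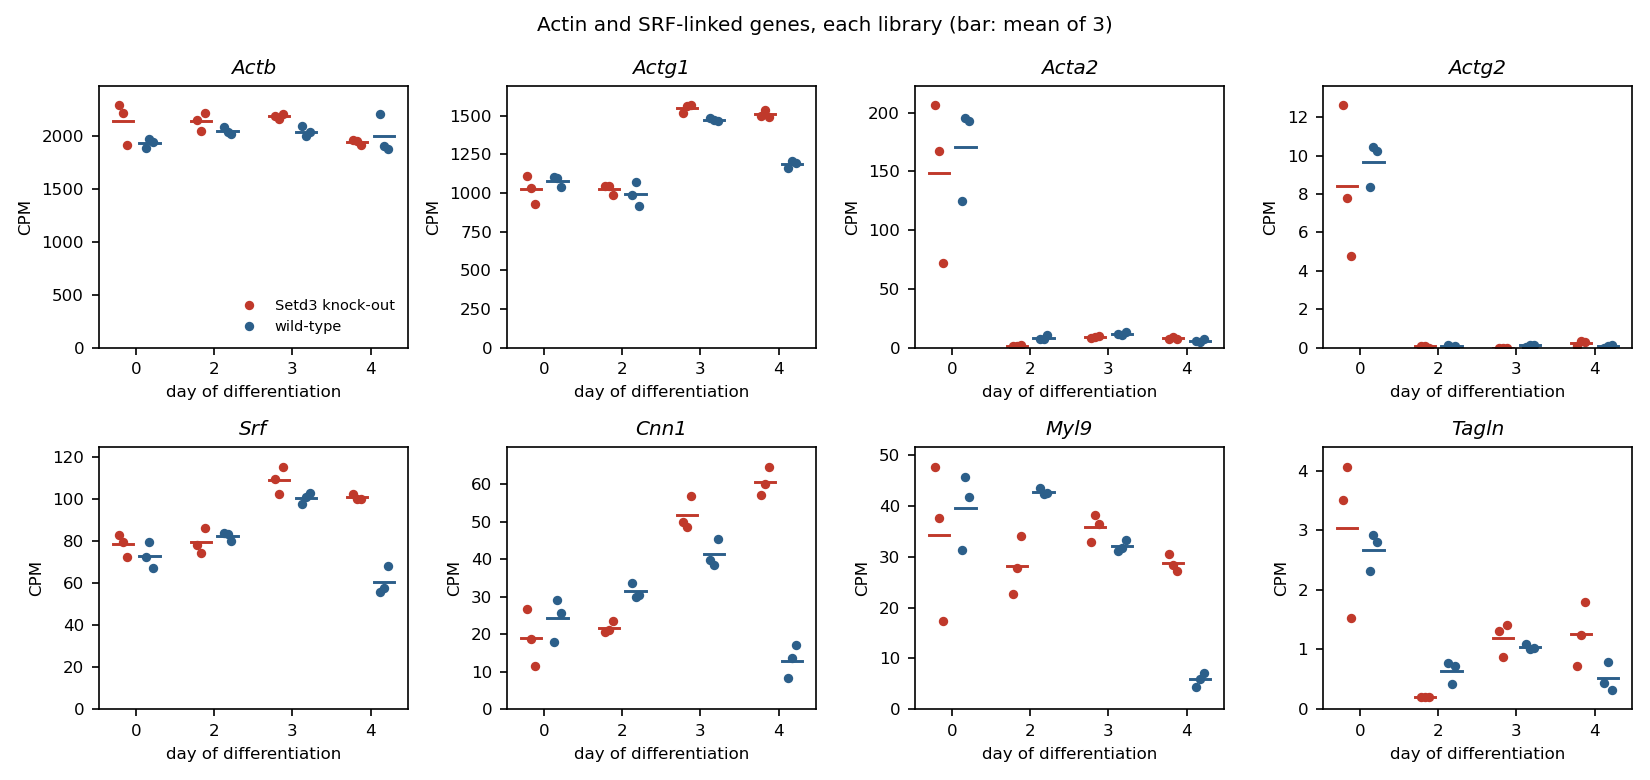
CPM of the 8 counted members in each of the 24 libraries, by day of differentiation, with Setd3 knock-out in red left of wild-type in blue and a bar at the mean of 3 libraries; each vertical axis starts at 0. Actb lies between 1874 and 2287 CPM throughout, Acta2, Actg2 and Tagln have their highest means at day 0, and at day 4 the wild-type libraries of Srf, Cnn1 and Myl9 lie below all knock-out libraries.

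Actb, the more abundant of the cytoplasmic actins per kilobase, passed the test between genotypes at no day with all 24 libraries in the fit. It averaged 2136 ± 200 CPM in knock-out and 1930 ± 44.2 CPM in wild-type cells at day 0, and 1942 ± 23.0 CPM in knock-out and 1995 ± 186 CPM in wild-type cells at day 4. Its log2 fold changes at days 0, 2, 3 and 4 were 0.15 ± 0.056, 0.062 ± 0.056, 0.099 ± 0.056 and -0.039 ± 0.056, with adjusted p of 0.0648, 0.427, 0.164 and 0.587. The knock-out and wild-type libraries overlapped at days 0, 2 and 4, while at day 3 the lowest knock-out library stood at 2162 CPM and the highest wild-type library at 2089 CPM. At day 0 the knock-out libraries held 2287, 2212 and 1910 CPM, against 1881, 1965 and 1945 CPM in wild-type libraries, and without knock-out replicate 3 the difference passed (0.22, adjusted p = 0.00307). At day 3 it passed with only the 2 groups compared in the fit (0.094, adjusted p = 0.0427).

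Actg1, the other cytoplasmic actin, was higher in the knock-out at day 4. The knock-out libraries held 1495, 1539.9 and 1493 CPM, against 1164, 1206 and 1194 CPM in wild-type libraries, and the groups did not overlap. The difference was 0.35 ± 0.053 on the log2 scale, 1.27-fold, with an adjusted p of 4.68e-06. At days 0, 2 and 3 the log2 fold changes were -0.076, 0.052 and 0.071, and none passed (adjusted p = 0.339, 0.491 and 0.297). Per kilobase of exon, Actg1 stood at 0.484 ± 0.011, 0.486 ± 0.032, 0.715 ± 0.015 and 0.783 ± 0.012 of Actb in knock-out cells at days 0, 2, 3 and 4, and at 0.565 ± 0.027, 0.489 ± 0.037, 0.729 ± 0.013 and 0.604 ± 0.063 of Actb in wild-type cells. Between genotypes, the ratio at day 0 was 0.471 to 0.491 in knock-out and 0.539 to 0.593 in wild-type libraries. At day 4 it lay the other way, at 0.770 to 0.794 in knock-out and 0.531 to 0.642 in wild-type libraries. The libraries of the genotypes overlapped at days 2 and 3, and the ratio was not tested. In the knock-out the ratio was higher at day 4 than at day 3 with no overlap of the libraries, and in wild-type cells it was lower at day 4 than at day 3, also with no overlap. The wild-type mean at day 4 holds replicate 1 at 0.531, apart from 0.639 and 0.642 in the other two libraries. Summed over the 4 counted actin genes, without Acta1 and Actc1, actin transcripts made up 3460 ± 43.5 CPM in knock-out and 3189 ± 166 CPM in wild-type cells at day 4.

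**Figure D2:**
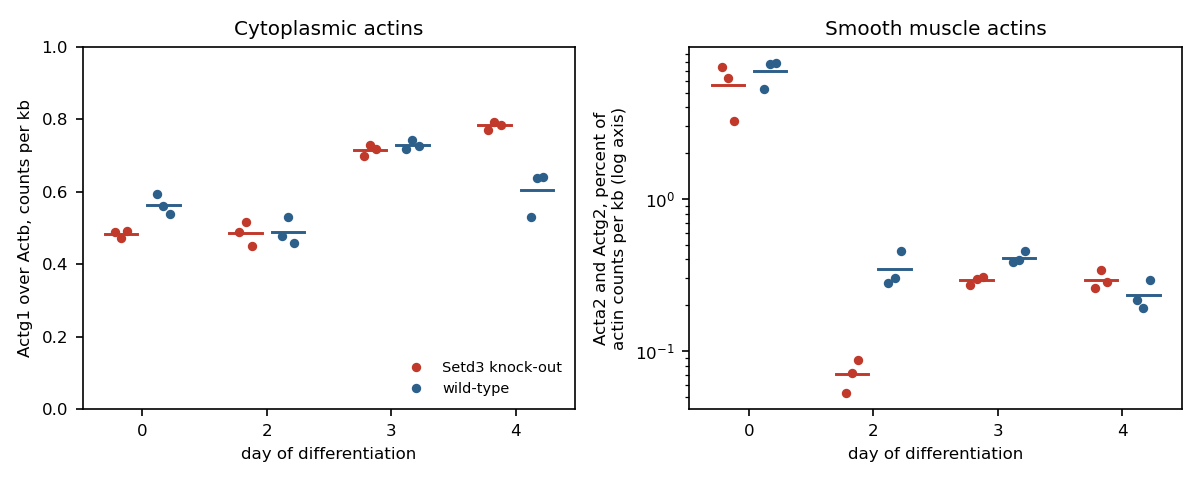
Left, the ratio of Actg1 to Actb in counts per kilobase; right, the share of Acta2 and Actg2 in the counts per kilobase of the 4 counted actin genes, in percent on a log axis. Points are libraries by day, Setd3 knock-out in red left of wild-type in blue, and bars are means of 3; the knock-out share at day 2 averages 0.0707% against 0.345% in wild-type.

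Acta2, the aortic smooth muscle actin, was lower in the knock-out at day 2. Its counts were 25, 33 and 46 in knock-out libraries, against 144, 145 and 208 in wild-type libraries, or 1.74 ± 0.52 CPM against 8.44 ± 2.05 CPM. The groups did not overlap, and the difference was -2.27 ± 0.47 on the log2 scale, 4.81-fold, with an adjusted p of 0.00137. At day 3 Acta2 averaged 8.99 ± 0.66 CPM in knock-out and 11.8 ± 1.01 CPM in wild-type cells, and at day 4 8.04 ± 1.13 CPM in knock-out and 5.99 ± 1.20 CPM in wild-type cells. Neither day passed (log2 fold changes -0.39 ± 0.34 and 0.42 ± 0.38, adjusted p = 0.389 and 0.367). The 18 feeder fibroblast markers summed to 169 to 255 CPM in knock-out and 161 to 190 CPM in wild-type libraries at day 2, and these ranges overlap. Of the 18, 1 was at 0 in knock-out replicate 1 and none in the other day 2 libraries. Only 1 of the 18 passed, higher in the knock-out, where 16.2% of tested genes were higher. Single markers differed in direction: Col3a1 averaged 39.3 CPM in knock-out and 18.7 CPM in wild-type cells, Mmp2 54.8 and 51.4 CPM, and Pdgfrb 4.30 and 5.29 CPM. At day 0 Mmp2 had averaged 71.0 and 48.8 CPM. Lox averaged 1.31 CPM in knock-out and 0.75 CPM in wild-type cells at day 2, against 421 and 278 CPM at day 0. The feeder sums at day 2 are therefore not read as an amount of feeder cells. The part of these markers' cells in the difference of Acta2 was not tested.

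Actg2, the enteric smooth muscle actin, had too few counts after day 0 to follow. Its counts were 2, 2 and 0 in knock-out and 3, 1 and 2 in wild-type libraries at day 2, 0, 0 and 0 in knock-out and 1, 3 and 3 in wild-type libraries at day 3, and 2, 7 and 6 in knock-out and 0, 2 and 3 in wild-type libraries at day 4. The test passed at day 3 (adjusted p = 0.0422) on 7 counts in all, and the call was lost on leaving out any day 3 library but wild-type replicate 1 (adjusted p up to 0.0945). Read with the counting error of so few reads, the gene gives no fold change after day 0.

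The share of Acta2 and Actg2 in the counts per kilobase of the 4 counted actin genes brought these values together. At day 2 it was 0.0707% ± 0.017 in knock-out and 0.345% ± 0.094 in wild-type cells, and at day 3 0.292% ± 0.019 in knock-out and 0.411% ± 0.038 in wild-type cells. At both days the groups did not overlap, and the two-sided exact permutation test gave p = 0.1, the smallest that 3 against 3 can give, or 0.2 adjusted over the 4 days. At day 0 it was 5.66% ± 2.15 in knock-out and 6.92% ± 1.44 in wild-type cells (exact p = 0.5), and at day 4 0.294% ± 0.042 in knock-out and 0.233% ± 0.052 in wild-type cells (exact p = 0.3).

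Acta1 and Actc1, the skeletal and cardiac actins, gave no readable value. In the annotation the whole span of Acta1 lies inside Gm20388 and that of Actc1 inside A530058N18Rik, both on the opposite strand. Of 1189 protein-coding genes that lie whole inside another gene, 1183 (99.5%) are listed at 0 in every library, against 2329 of 20708 (11.2%) that do not. The pluripotency gene Sox2 is one of the genes inside another and is also listed at 0. A listed 0 of Acta1 or Actc1 therefore cannot be read as absence of their transcripts. For Tagln, 639 of 1988 exon bases lie outside other genes, so its counts are uncertain and its level is not set beside those of other genes. For Actg1 2511 of 2658 exon bases lie outside other genes, and for Actb, Acta2, Actg2, Srf, Cnn1 and Myl9 all exon bases do.

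At day 0 the libraries with the lowest feeder markers also had the lowest smooth muscle genes. The 18 feeder markers summed to 3405, 2437 and 1278 CPM in the knock-out libraries and 1313, 2318 and 1977 CPM in the wild-type libraries. Between genotypes 0 of the 18 passed, where 21.1% of all tested genes did, and their median log2 fold change was 0.26. With so wide a spread within groups, an equal feeder content is not shown. Acta2 stood at 206, 168 and 72.1 CPM in the same knock-out libraries, against 125, 195 and 193 CPM in the wild-type libraries. Knock-out replicate 3 and wild-type replicate 1 were the lowest of their groups in the feeder sum, in Acta2, and in Actg2, Tagln, Cnn1 and Myl9. Acta2 differed by -0.20 ± 0.26 between genotypes, Actg2 by -0.20 ± 0.27, Myl9 by -0.21 ± 0.24, Cnn1 by -0.36 ± 0.24 and Tagln by 0.18 ± 0.30, and none passed.

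With the feeder sum as a covariate over the 6 libraries of day 0, 4 of the 8 members passed at day 0, all lower in the knock-out, where 18.4% of 15649 tested genes passed and 9.99% were lower. Acta2 differed by -0.59 (adjusted p = 0.00167), Cnn1 by -0.66 (adjusted p = 0.000657), Myl9 by -0.56 (adjusted p = 0.00226) and Actg2 by -0.52 (adjusted p = 0.0393) on the log2 scale. Taken per library as a percent of the feeder sum, a ratio computed after the data were seen, Acta2 was 5.64% to 6.88% in knock-out and 8.43% to 9.76% in wild-type libraries. Cnn1 was 0.766% to 0.896% in knock-out and 1.26% to 1.36% in wild-type libraries, and Myl9 1.36% to 1.54% in knock-out and 1.97% to 2.38% in wild-type libraries. For Acta2, Actg2, Cnn1 and Myl9 the groups did not overlap in this ratio, and for Tagln they did. The feeder sum itself averaged 2373 CPM in knock-out and 1869 CPM in wild-type libraries. Its markers did not share 1 ratio: Lox averaged 421 and 278 CPM, Col3a1 365 and 256 CPM, Twist2 2.83 and 2.79 CPM, and Mfap5 6.35 and 7.21 CPM. Other sets of markers were not tried as the covariate, so these differences hold for this sum alone. Without knock-out replicate 3 and wild-type replicate 1, and with no covariate, Acta2 differed by -0.055, Cnn1 by -0.28, Myl9 by -0.035 and Actg2 by -0.019, and none of these passed. The share of all genes without overlap in this ratio was not counted, so the ratio is a description only. Which cells held these transcripts was not tested.

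**Figure D3:**
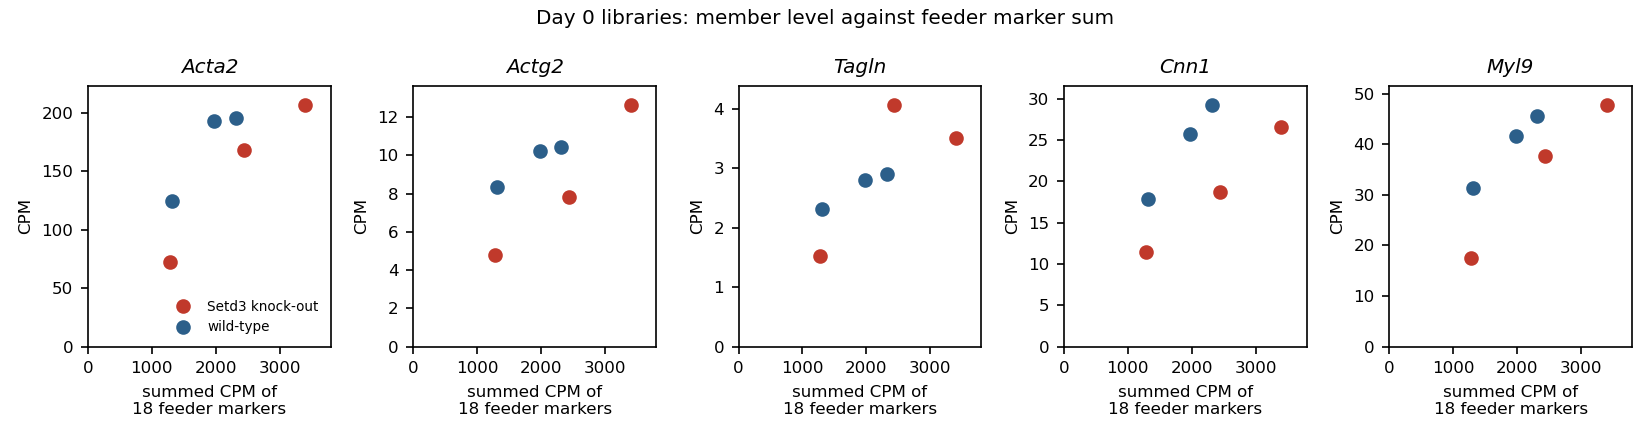
CPM of 5 members against the summed CPM of 18 feeder fibroblast markers in the 6 libraries of day 0, Setd3 knock-out in red and wild-type in blue, both axes from 0. Knock-out replicate 3 and wild-type replicate 1 sit lowest in their groups on both axes, and at a like feeder sum the knock-out points of Acta2, Cnn1 and Myl9 sit below the wild-type points.

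Srf, the transcription factor itself, was higher in the knock-out at day 4. The knock-out libraries held 103, 99.96 and 100.4 CPM, against 55.9, 57.5 and 68.2 CPM in wild-type libraries. The groups were well apart, with a difference of 0.74 ± 0.073 on the log2 scale, 1.67-fold, and an adjusted p of 6.52e-09. At days 0, 2 and 3 Srf averaged 78.5, 79.8 and 109 CPM in knock-out and 73.1, 82.6 and 101 CPM in wild-type cells, and none of these differences passed (log2 fold changes 0.10, -0.050 and 0.12; adjusted p = 0.346, 0.642 and 0.195).

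Myl9 and Cnn1 had the largest log2 fold changes of the 8 tested members at day 4. Myl9, a regulatory light chain of smooth muscle and non-muscle myosin, stood at 30.5, 28.4 and 27.2 CPM in knock-out libraries, against 4.43, 6.01 and 7.10 CPM in wild-type libraries. Cnn1, calponin, an actin-binding protein of smooth muscle, stood at 57.0, 60.0 and 64.6 CPM in knock-out libraries, against 8.26, 13.5 and 17.1 CPM in wild-type libraries. In neither gene did the groups overlap. Myl9 differed by 2.29 ± 0.28 on the log2 scale (4.90-fold, adjusted p = 1.69e-06) and Cnn1 by 2.22 ± 0.25 (4.66-fold, adjusted p = 4.17e-07). At day 2 the means lay the other way, at 28.2 ± 5.75 CPM in knock-out and 42.8 ± 0.68 CPM in wild-type cells for Myl9, and at 21.7 ± 1.59 CPM in knock-out and 31.4 ± 2.02 CPM in wild-type cells for Cnn1. The groups did not overlap there, but neither gene passed (-0.61 ± 0.24, adjusted p = 0.067; -0.53 ± 0.24, adjusted p = 0.101).

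Tagln, transgelin, another actin-binding protein of smooth muscle, passed at days 2 and 4 in opposite directions. At day 2 its counts were 4, 4 and 4 in knock-out libraries, against 16, 8 and 14 in wild-type libraries, a difference of -1.64 ± 0.54 on the log2 scale (adjusted p = 0.0219). At day 4 they were 16, 26 and 37 in knock-out libraries, against 9, 17 and 7 in wild-type libraries, and the groups overlapped (1.26 ± 0.40, adjusted p = 0.00971). The day 2 call was lost without any library but wild-type replicate 2 (adjusted p up to 0.082), and the day 4 call without knock-out replicate 3 (adjusted p = 0.0855) or wild-type replicate 3 (adjusted p = 0.0558).

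**Figure D4:**
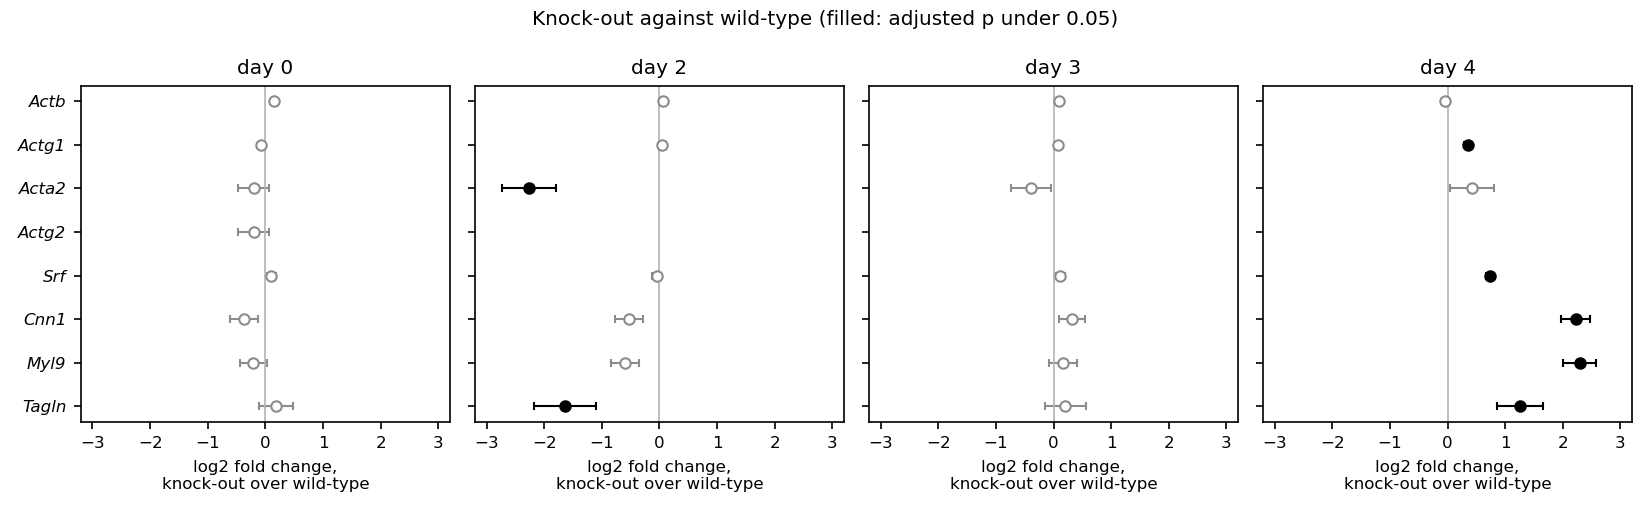
Log2 fold change of knock-out over wild-type at each day for 8 members, with bars of its size over the square root of F; filled points have an adjusted p under 0.05, and Actg2 is left out after day 0, where it has few counts. Filled points lie left of 0 at day 2 (Acta2 -2.27, Tagln -1.64) and right of 0 at day 4 (Myl9 2.29, Cnn1 2.22).

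Levels of other cell type markers at day 4 are given beside these differences. The feeder markers summed to 106 to 119 CPM in knock-out and 82.7 to 88.2 CPM in wild-type libraries. Of the 18, 3 passed as higher and 1 as lower in the knock-out. Mmp2 averaged 46.8 CPM in knock-out and 24.9 CPM in wild-type cells, and Thy1 11.9 and 1.496 CPM. Others lay the other way: Col1a2 averaged 5.16 CPM in knock-out and 8.01 CPM in wild-type cells, and Pdgfrb 2.13 and 8.59 CPM. In wild-type cells Mmp2 stood at 48.8 CPM at day 0 and 51.4 CPM at day 2. In the knock-out it stood at 71.0 and 54.8 CPM. The feeder sums at day 4 are therefore not read as an amount of feeder cells. The 15 striated muscle and cardiac mesoderm markers, of which Tnnc1 is listed at 0, summed to 10.3 to 14.2 CPM in knock-out and 32.9 to 75.2 CPM in wild-type libraries. Of the 10 tested, 1 passed as higher and 4 as lower, beside the same 26.3% and 27.6% of all tested genes. Stem cell markers summed to 706 to 750 CPM in knock-out and 188 to 308 CPM in wild-type libraries. Of the 5 tested, 4 passed as higher and 1 as lower: Pou5f1 averaged 474 CPM in knock-out and 140 CPM in wild-type cells, and Klf4 1.11 and 3.87 CPM. At day 3 the sums lay the other way, at 690 to 701 CPM in knock-out and 779 to 847 CPM in wild-type libraries. The part of these markers' cells in the differences of Srf, Cnn1, Myl9 and Actg1 was not tested.

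The course over days shows which genotype moved. These steps share libraries with the comparisons above and with each other. From day 0 to day 2, 5 of 8 members passed in wild-type cells, where 63.8% of tested genes passed. Acta2 fell by 4.34 ± 0.33 on the log2 scale, at 8.44 CPM on day 2 against 171 CPM on day 0, and Tagln fell by 2.05 ± 0.36. Actg2 stood at 6 counts over the day 2 libraries, against 658 over the day 0 libraries. In the knock-out 3 of 8 passed, all lower at day 2, where 60.1% of tested genes passed and 30.6% were lower: Acta2 fell by 6.41 ± 0.40, Tagln fell by 3.88 ± 0.44, and Actg2 stood at 4 counts on day 2, against 518 on day 0. The feeder marker sum was 169 to 255 CPM at day 2, against 1278 to 3405 CPM at day 0, in the knock-out, and 161 to 190 CPM at day 2, against 1313 to 2318 CPM at day 0, in wild-type cells. As above, the day 2 sums are not read as an amount of feeder cells. The fall of Acta2 was larger in the knock-out (knock-out step minus wild-type step -2.06 ± 0.55 on the log2 scale, adjusted p = 0.0292). It was the 1 member of 8 to pass, lower, where 7.34% of tested genes passed and 3.07% were lower. That call was lost on leaving out knock-out day 0 replicate 1 or 2, knock-out day 2 replicate 1 or 2, wild-type day 0 replicate 1 or wild-type day 2 replicate 3 (adjusted p up to 0.0944), and with only these 4 groups in the fit (adjusted p = 0.159). In wild-type cells Srf was 0.18 ± 0.07 higher at day 2 and Actg1 0.12 ± 0.05 lower, both close to the threshold (adjusted p = 0.0375 and 0.0413). The call of Srf was lost without day 0 replicate 1 or 3 or day 2 replicate 1 or 2 (adjusted p up to 0.211), and also under RLE scaling (adjusted p = 0.116), upper-quartile scaling (0.0556), only the compared groups (0.0531) and DESeq2's Wald test (0.132). That of Actg1 was lost without day 0 replicate 2 or day 2 replicate 1 or 3 (adjusted p up to 0.318) and with only the compared groups (adjusted p = 0.0845).

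With the first day of Activin A, Actg1 and Srf rose in both genotypes. In the knock-out, 5 of 8 members passed from day 2 to day 3, all higher at day 3, where 29.1% of tested genes passed and 14.7% were higher. Actg1 rose by 0.59 ± 0.05, Srf by 0.45 ± 0.07, Cnn1 by 1.25 ± 0.24, Acta2 by 2.36 ± 0.46 and Tagln by 2.54 ± 0.48 on the log2 scale. In wild-type cells 2 of 8 passed, both higher, where 42.4% of tested genes passed and 21.4% were higher: Actg1 rose by 0.57 ± 0.05 and Srf by 0.28 ± 0.07. Tests of the difference between the genotypes' steps passed for 0 of 8 members, where 10.9% of tested genes passed. The nearest were Acta2 (1.88 ± 0.59, adjusted p = 0.051), Tagln (1.84 ± 0.65, adjusted p = 0.0699) and Cnn1 (0.86 ± 0.33, adjusted p = 0.11). By edgeR's quasi-likelihood test 4 of these 8 had an unadjusted p under 0.05, Myl9 being the other, and DESeq2's Wald test passed 1.

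From day 3 to day 4 most members fell in wild-type cells. In wild-type cells 6 of 8 members passed, all lower at day 4, where 45.5% of tested genes passed and 23.1% were lower. Myl9 fell by 2.45 ± 0.28, Cnn1 by 1.67 ± 0.25, Srf by 0.73 ± 0.07 and Actg1 by 0.31 ± 0.05 on the log2 scale. Acta2 and Tagln fell by 0.97 ± 0.36 and 1.00 ± 0.41, close to the threshold (adjusted p = 0.0361 and 0.0491). The call of Acta2 was lost on leaving out any library of these 2 groups but day 4 replicate 3 (adjusted p up to 0.119) and with no filter (adjusted p = 0.063). That of Tagln was lost on leaving out any but day 4 replicate 2 (adjusted p up to 0.192), under RLE scaling (adjusted p = 0.0513) and by DESeq2's Wald test (adjusted p = 0.055). In the knock-out 2 of 8 passed, where 11.6% of tested genes did. These were Actg2, on 15 counts at day 4 against 0 at day 3, and Actb, which fell by 0.17 ± 0.056 (adjusted p = 0.0494). The call of Actb was lost on leaving out any of the 6 libraries (adjusted p up to 0.155), under RLE scaling (adjusted p = 0.0563) and with no filter (adjusted p = 0.0504), and that of Actg2 on leaving out any but day 4 replicate 1 (adjusted p up to 0.0575). Srf, Cnn1, Myl9 and Actg1 in the knock-out stood at 101, 60.5, 28.7 and 1509 CPM at day 4, against 109, 51.8, 35.8 and 1550 CPM at day 3.

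The difference between the genotypes' steps from day 3 to day 4 passed for 5 of 8 members, all with the higher term in the knock-out, where 23.8% of tested genes passed and 12.6% were higher. The term was 2.13 ± 0.37 for Myl9 (adjusted p = 0.000373), 1.89 ± 0.33 for Cnn1 (adjusted p = 0.00038), 0.62 ± 0.10 for Srf (adjusted p = 7.47e-05) and 0.27 ± 0.07 for Actg1 (adjusted p = 0.00805). The fifth was Actg2, on few counts, and its call was lost without knock-out day 3 replicate 1, knock-out day 4 replicate 2 or wild-type day 3 replicate 2 or 3 (adjusted p up to 0.0592). Side by side and with no test, the knock-out at day 4 and the wild-type at day 3 held 101 and 101 CPM of Srf, 60.5 and 41.2 CPM of Cnn1, 28.7 and 32.1 CPM of Myl9, and 1509 and 1475 CPM of Actg1.

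Other genes of the pathway were described by lists. Of all tested genes, 10.6%, 16.2%, 20.8% and 26.3% were higher in the knock-out at days 0, 2, 3 and 4, and 10.5%, 15.7%, 20.5% and 27.6% were lower. Of 15 contractile SRF targets outside the 10 genes, 8 were higher and 3 lower in the knock-out at day 4, with a median log2 fold change of 0.57 against -0.013 over all tested genes. Synpo2, an actin-bundling protein, was higher by 2.43, Des, the muscle intermediate filament desmin, by 1.26, Smtn, smoothelin, by 0.62, and Pdlim7 by 0.60. At day 2 the counts ran the other way, with 2 higher and 7 lower and a median of -0.37. At day 2 Smtn was higher by 0.48 and Tpm2, a tropomyosin, Pdlim7 and Mylk, the myosin light chain kinase, differed by -0.67, -0.37 and -1.30. At day 3, 5 were higher and 3 lower, led by Synpo2 at 2.25, and at day 0 only Pdlim7 passed, at -0.43.

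Adhesion, immediate early and cofactor genes showed no common direction at day 4. Of the 15 tested adhesion and cytoskeletal SRF targets, 5 were higher and 5 lower, with a median of 0.022. Itga5, the fibronectin receptor subunit, differed by -1.38 and Myh9, a non-muscle myosin heavy chain, by -0.82, while Wdr1, a cofactor of cofilin, was higher by 0.42. Of 11 immediate early genes, which ternary complex factors serve, 3 were higher and 4 lower: Arc and Ier2 were higher by 1.26 and 0.35, and Fos and Egr3 differed by -1.94 and -2.11. Among 7 SRF cofactor genes, Myocd, the cardiac and smooth muscle coactivator, averaged 0.614 CPM in knock-out and 10.5 CPM in wild-type cells, a difference of -4.09, and Elk3, a ternary complex factor, was higher by 1.14. Myocd stood lower in the knock-out at the day when Cnn1 and Myl9 stood higher, and a link between them was not tested. At day 3 Myocd averaged 0.734 CPM in knock-out and 0.159 CPM in wild-type cells, a difference of 2.15 on few counts, and at day 2 it differed by -2.45. Mrtfa passed at day 3 alone, higher in the knock-out by 0.44, among 5 of 7 cofactors higher at that day.

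Regulators of actin assembly differed in both directions at day 4, with 7 of 20 higher and 7 lower and a median of -0.0096. Cotl1, a filament-binding protein, differed by -1.62, and Dstn, which severs filaments, Capg, which caps them, and Diaph3, a formin, were higher by 0.46, 1.10 and 0.43. Of the 14 tested genes of actin folding and modification, 6 were higher and 1 lower, with a median of 0.13. Cct3, Cct6a and Cct7, subunits of the chaperonin that folds actin, were higher by 0.51, 0.28 and 0.26, and Mical1, an actin-oxidising enzyme, differed by -0.40.

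**Figure D5:**
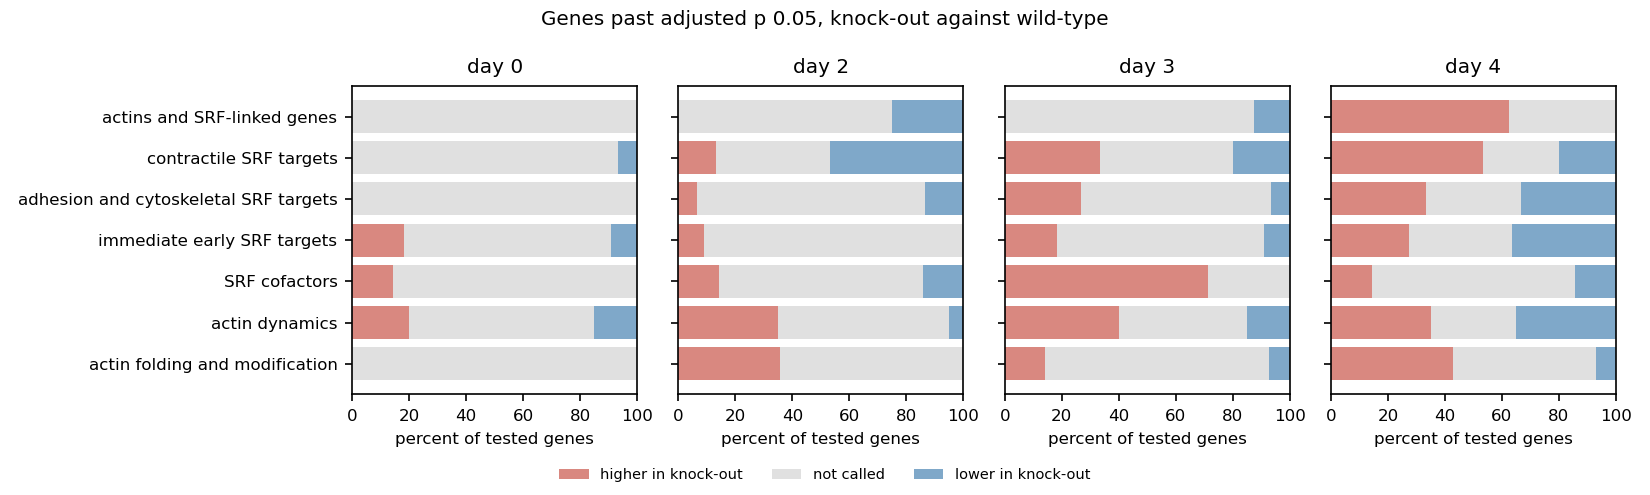
Percent of the tested genes of each list that were higher (left, red), not called (grey) or lower (right, blue) in Setd3 knock-out against wild-type at each day, at an adjusted p under 0.05; lists hold 7 to 20 tested genes. At day 4 the 10 chosen genes show 5 of 8 higher and the contractile targets 8 of 15 higher, while the adhesion targets show 5 of 15 higher and 5 of 15 lower.

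Likeness of pattern was taken as Pearson's r of log2 CPM over the 24 libraries, among 8959 genes of at least 10 CPM on average, as a description over libraries that share groups and feeder content. The 3 genes most like Srf were Rrs1 (r = 0.944), Cnn1 (r = 0.911) and Nova1 (r = 0.905). Those most like Acta2 were Anxa3 (r = 0.977), Arl6ip5 (r = 0.963) and Loxl3 (r = 0.957). No gene followed Actb as closely, the nearest being Ugdh (r = 0.726), and Fkbp1a (r = 0.608) was also among its nearest 3.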

How the data were processed

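The authors deposited a table of raw, whole-number counts per gene and library. HISAT2, Trimmomatic and the build GRCm38.p6 are named in the submitters' processing notes. Versions, counting tool, annotation, use of strand and handling of multiply mapped reads were not given in the sources used here. The members and gene lists were chosen with earlier results of these data known. Groups and replicate numbers came from the labels. CPM used TMM-scaled library sizes. Counts were tested with edgeR 4.0.16 (R 4.3.3; glmQLFit and glmQLFTest, robust, filterByExpr by group) in 1 model of 24 libraries and 8 groups, over 13 comparisons and 17144 genes, with Benjamini-Hochberg adjustment over all tested genes of a comparison and a threshold of 0.05. The fit was tested on simulated data. Shares of actin were tested by exact permutation. Coordinates and exon lengths came from GENCODE M21 and promoters from RefSeq. Likeness used log2(CPM + 0.5). Named genes were the members, Setd3, at most 4 called genes per list and comparison by lowest adjusted p, and 3 genes most like Actb, Acta2 and Srf; some items that this rule takes are not reported here. Alternatives were RLE and upper-quartile scaling, no filter, only the compared groups, a replicate block, each library left out, DESeq2 1.42.0, the feeder sum as covariate and, for shares, no length. The day 0 fit without both lowest-feeder libraries and the share on exon bases outside other genes were added after the data were seen.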

Additional observations from a re-analysis of the deposited data

Results flagged for a closer look

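Steps between days differed between genotypes, by the interaction term of the model, for 6 results, each given as the knock-out step minus the wild-type step on the log2 scale. From day 0 to day 2 the term was -2.06 for Acta2. From day 3 to day 4 it was 2.13 for Myl9, 1.89 for Cnn1, 0.62 for Srf and 0.27 for Actg1. For Actg2 it was 5.84, a fitted value that rests on 15 counts at day 4 and 0 at day 3 in the knock-out, depends on the prior count and is no bound.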

How the results depend on the processing

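At day 4 between genotypes, and for the day 3 to day 4 interaction, no alternative moved the number of members called by over 1.5 times, and Srf, Myl9, Cnn1 and Actg1 passed in both under every one run. The other numbers moved as follows. With only the compared groups in the fit, 3 members, Actb among them, passed at day 3 between genotypes (1 otherwise), 3 in the wild-type step from day 0 to day 2 (5 otherwise), 5 in the wild-type step from day 2 to day 3 (2 otherwise), 0 for the interaction from day 0 to day 2 (1 otherwise) and 4 for that from day 2 to day 3 (0 otherwise). With RLE scaling, upper-quartile scaling or DESeq2's Wald test 1 member passed for that last interaction, and with RLE scaling or no filter 1 in the knock-out step from day 3 to day 4 (2 otherwise). At day 0, 4 passed with the feeder covariate and 1 (Actb) without knock-out replicate 3 and wild-type replicate 1. Leaving out 1 library gave 0 to 1 members at day 0, 1 to 2 at day 2, 0 to 1 at day 3, 3 to 4 for the wild-type step from day 0 to day 2, 0 to 1 for the knock-out step from day 3 to day 4, and 0 to 3 for the interaction from day 0 to day 2. The cause was not tested.

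Sign changes were confined, among the results and alternatives run, to differences that did not pass. Tagln at day 0 was -0.085 with the feeder covariate, Actg1 at day 0 was 0.0070 without both lowest-feeder libraries, and at day 2 Actb was -0.00071 and Actg1 -0.012 with upper-quartile scaling. Leaving out 1 library gave -0.51 to 0.13 for Acta2, -0.61 to 0.077 for Actg2, -0.52 to 0.11 for Myl9 and -0.085 to 0.50 for Tagln at day 0, -0.0026 to 0.11 for Actg1 at day 2 and -0.079 to 0.043 for Actb at day 4.

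With the replicate number as a block, 9326 genes passed at day 4 between genotypes, against 9251 without it, and among the members Acta2 (adjusted p = 0.053) and Tagln (adjusted p = 0.0568) lost their call in the wild-type step from day 3 to day 4. The numbers are not shown to pair libraries: the 12 same-numbered pairs had correlations of deviations from -0.204 to 0.0797, and 0 exceeded 0.1. Tagln and Actg2 are limited by counts, and Acta1 and Actc1 by their place inside other genes.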
